A study of Mus musculus with 12 samples.

Results

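The genes described here are 4930447C04Rik, also known as Six6os1, and 9 further genes of the meiotic synaptonemal complex and its cohesin axis, measured by RNA sequencing of the mouse hippocampus. 4930447C04Rik was chosen by its read counts in KO against WT mice, which nearly vanish in the knockout of the transcription factor USF-1, so its difference between the genotypes is given as a description, without a test. Sycp1, Sycp2, Sycp3, Syce1, Syce2, Syce3, Tex12, Stag3 and Smc1b were taken by name, whatever their values. These 10 genes are 10 of the 55487 rows of the deposited table.

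The study compared 6 USF-1 KO mice with 6 wildtype (WT) mice on the C57Bl/6JRccHsd background, aged 3 to 4 months, with 1 hippocampal library per mouse. KO and WT mice were littermates from the breeding of heterozygous USF-1 deficient mice, so that the deficiency was inherited and not restricted to a tissue, and mice of the behavioural experiments were housed singly from 2 weeks before testing. By the labels, 4 WT mice were female and 2 male, whereas 2 KO mice were female and 4 male. A figure legend of the study divides the sexes otherwise, so every value by sex rests on the labels. Mice are named by genotype and number, for example WT 490.

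The synaptonemal complex is the protein zipper that holds homologous chromosomes together along their length during meiosis. It has lateral elements built on meiotic cohesin, transverse filaments that span the gap and a central element where the filaments meet. The 4930447C04Rik product is a protein of the central element and is required for synapsis in the germ line. Meiosis takes place in germ cells, and the adult hippocampus has none.

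USF-1 is a basic helix-loop-helix leucine zipper factor that binds the E-box CACGTG, which reads the same on both strands. These letters were searched in RefSeq promoter windows of GRCm38.p6, which run from 250 bases before to 50 bases after a start site. They were present in windows of 6 of the 10 genes and in 7.15% of all 32851 windows. Among genes with enough reads to be tested, 11.2% of the 12147 with a window held them. The windows of Sycp2, Syce1, Syce3 and Smc1b held no such letters. The 30 bases around each match are shown because they place the same letters, in capitals, beside a gene that nearly vanished in KO mice and beside 5 others, of which 2, Syce2 and Stag3, had enough reads to be tested. All are written 5′ to 3′ on the strand of the gene, which is the minus strand for 4930447C04Rik, Sycp1 and Tex12 and the plus strand for Sycp3, Syce2 and Stag3. The windows lie at chr12:72917919-72917948 for 4930447C04Rik, chr3:102936177-102936206 for Sycp1, chr10:88459511-88459540 and chr10:88459532-88459561 for Sycp3, chr8:84872158-84872187 for Syce2, chr9:50561344-50561373 for Tex12 and chr5:138280327-138280356 for Stag3.
4930447C04Rik: actgtggcctacCACGTGgtgcgcggggtc
Sycp1: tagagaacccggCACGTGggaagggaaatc
Sycp3, first match: gccgttggctccCACGTGagaacgggcatg
Sycp3, second match: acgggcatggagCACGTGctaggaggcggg
Syce2: cgtttcattcagCACGTGctcggggcgggg
Tex12: ccgcgagactgtCACGTGgctcgcgcgctg
Stag3: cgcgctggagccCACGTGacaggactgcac

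By GENCODE M21, the E-box of 4930447C04Rik lies inside the annotated gene but in no exon, 25 bases upstream of the nearest exon. Those of Sycp1, Sycp3 and Tex12 lie upstream of the gene, from 20 to 89 bases from its start. Those of Syce2 and Stag3 fall in annotated exons. A match of letters is a description of the sequence and was not tested as a binding site. A second set of letters, the E2F element GCGGGA or its reverse complement TCCCGC, was present for 6 of the 10 genes, in 20% of all windows and for 38% of the tested genes with a window. 4930447C04Rik held no such element.

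The library totals ranged from 23369928 to 32091173 reads in WT mice and from 21679622 to 30859179 reads in KO mice. Values are read counts scaled by the size factor of each library, here called normalised counts. Usf1, the targeted gene, had normalised counts of 842 to 1583 in WT and 117 to 163 in KO mice, and the KO mean was 9.98% of the WT mean. WT 493 stood apart, since its 842 was followed only by 1425 for Usf1 in the next WT mouse. It also had the highest summed count of 8 choroid plexus markers, 164472, followed by WT 490 with 58233.7, while the other 10 mice ranged from 780 to 2720. The 8 hippocampal neuron markers were detected in both genotypes, with summed counts of 79170 to 92114 in WT and 81146 to 104079 in KO mice. In such bulk tissue, fewer cells of a type and less RNA per cell cannot be told apart.

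4930447C04Rik (ENSMUSG00000021098) lies at chr12:72881109-72940774 on the minus strand of mm10. In WT mice its normalised count was 149.5 in WT 490, 62.6 in WT 493, 176.1 in WT 522, 174.5 in WT 523, 179.5 in WT 547 and 210.8 in the remaining female WT mouse. In KO mice it was 5.15 in KO 482, 14.2 in KO 484, 5.70 in KO 488, 7.84 in KO 530, 14.6 in KO 553 and 20.6 in KO 564. Every KO mouse was below every WT mouse, and WT 493 was the WT mouse nearest to the KO range. The lowest WT value was 3.03 times the highest KO value.

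WT mice averaged 159 ± 51.0 (SD, n = 6) and KO mice 11.3 ± 6.12 (SD, n = 6), so that the KO mean was 7.14% of the WT mean, or 14.0-fold lower. On the scale of log2(normalised count + 1) the difference was -3.76. In all, 1016 reads were counted in WT and 64 in KO mice. The KO libraries held from 5 to 20 reads each, so reads counted for the gene were few but not absent. For 7 reads in KO 488, a 95% Poisson interval, which covers counting error only, spans 2.29 to 11.7 normalised counts. For 20 reads in KO 564 it spans 12.6 to 31.9. The intervals of these 2 mice do not touch.

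WT 493 reached 35.2% of what the other 5 WT mice averaged, 178 ± 21.8 (SD, n = 5). Its 59 reads gave a Poisson interval of 47.7 to 80.8 normalised counts, apart from the interval of 129 to 172 for WT 490, the next lowest WT mouse. Usf1 in WT 493 was at 55.3% of the other WT mice, whereas Dpp7, another gene that was low in every KO mouse, was at 114%. WT 490, which shared the high choroid plexus markers, had 93.0% of the other WT mice for 4930447C04Rik and 108% for Usf1. The part of choroid plexus RNA in these values was not tested. Without WT 493 the log2 difference of 4930447C04Rik was -4.00, and without WT 490 and WT 493 it was -4.07.

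**Figure D1:**
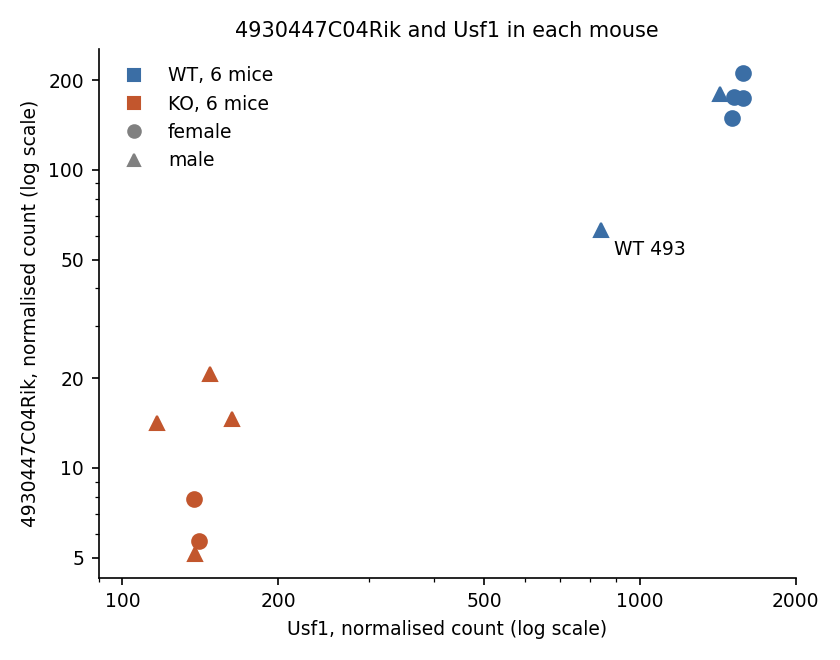
Normalised counts of Usf1 (x axis, log scale) and 4930447C04Rik (y axis, log scale) in each of 12 mice, with WT in blue, KO in orange, females as circles and males as triangles. The 6 KO mice sit at 5.15 to 20.6 for 4930447C04Rik, 5 WT mice at 149.5 to 210.8, and WT 493 lies between them at 62.6 with a Usf1 count of 842.

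Sex was not used in choosing the gene. Among WT mice 4930447C04Rik averaged 178 in 4 females, with a range of 149.5 to 210.8, and 121 in 2 males, WT 493 and WT 547, at 62.6 and 179.5. Among KO mice it averaged 6.77 in 2 females and 13.6 in 4 males, whose values ran from 5.15 to 20.6 and enclosed the female values of 5.70 and 7.84. With genotype in the fit, the log2 difference of males minus females was 0.03 with an SE of 0.38 (limma, adjusted p = 0.995). Sex differences passed this test for 10 of 18221 genes (0.0549%) and for 0 of the 4 tested genes of the set. None of the 4 had an unadjusted p under 0.05, against 6.45% of all genes.

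Among the 18221 tested genes, 196 (1.08%) had all 6 KO mice below all 6 WT mice, and among these 196 4930447C04Rik had the lowest KO mean as a percentage of the WT mean. By limma, 135 genes (0.741%) were called lower in KO mice. The next were Dpp7, which encodes a lysosomal dipeptidyl peptidase, at 8.95% and Usf1 itself at 9.98%. No other of these genes was under 10%, and 10 of the 196 were under 50%. Behind a wide gap followed Zfp459, a zinc finger protein gene, at 36.0%, Slc45a3, a member of the solute carrier family, at 36.6% and Cfap47, a gene of cilia and flagella, at 44.7%. The median over the 196 genes was 79.4%. This order rests on the measure that also chose 4930447C04Rik and is a description.

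Dpp7 had 557 to 662 normalised counts in WT and 25.1 to 72.1 in KO mice. Zfp459 had 26.8 to 38.6 in WT and 4.48 to 19.6 in KO mice, and Slc45a3 had 18.2 to 42.4 and 4.85 to 17.5. Cfap47 had 31.3 to 66.9 in WT and 10.3 to 26.7 in KO mice, and the 66.9 was again in WT 493. Of tested genes with a window, 11.2% held the E-box letters and 38% the E2F element. The genes here were taken for their low KO values, and Slc45a3 and Cfap47 among them held the E2F element. Binding was not tested. The E-box letters were present in RefSeq windows of Dpp7, Zfp459 and Cfap47, and not in those of Usf1 and Slc45a3. They are shown for comparison with 4930447C04Rik, on the minus strand, from chr2:25356388-25356417 for Dpp7, chr13:67421446-67421475 for Zfp459 and chrX:79517474-79517503 and chrX:79517385-79517414 for Cfap47.
Dpp7: ccgccagactatCACGTGatgctgccccgc
Zfp459: caatccagtaccCACGTGactccgacgtca
Cfap47, first match: aagcggcagatcCACGTGgggggcctggtc
Cfap47, second match: cccgcccacgcgCACGTGggattccaaccg

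The surroundings of 4930447C04Rik on the chromosome were examined next. The annotation holds 9 transcripts of the gene, 5 of them protein coding, and 3 start within 4 kb of the start of Six6, an eye and pituitary homeobox gene on the opposite strand. Exons of both genes share 192 bases, which is 3.21% of the exon bases of 4930447C04Rik. Six6 had 4 reads in WT 523 and 0 reads in each of the other 11 libraries. The strand setting of the counting is not given in the sources used here, so reads of overlapping genes cannot be told apart.

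Within 1 Mb of 4930447C04Rik the table lists 39 other genes, of which 15 had a mean of at least 10 normalised counts and were tested. By limma, with Benjamini-Hochberg adjustment over all 18221 genes, 0 of the 15 passed the threshold of 0.05, against 164 genes (0.9%) of all those tested, and 3 had an unadjusted p under 0.05, against 13.5% of all genes. edgeR and DESeq2 also called 0 of the 15, against 0.829% and 3.38% of all genes. The nearest tested gene on the side of lower coordinates was Ppm1a, a protein phosphatase gene, with a log2 difference of 0.01 ± 0.03 (SE, adjusted p = 0.912). On the other side it was Six4, another homeobox gene, with -0.24 ± 0.20 (SE, adjusted p = 0.658). The 15 log2 differences ran from -0.65 to 0.46, with a median of 0.01.

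**Figure D2:**
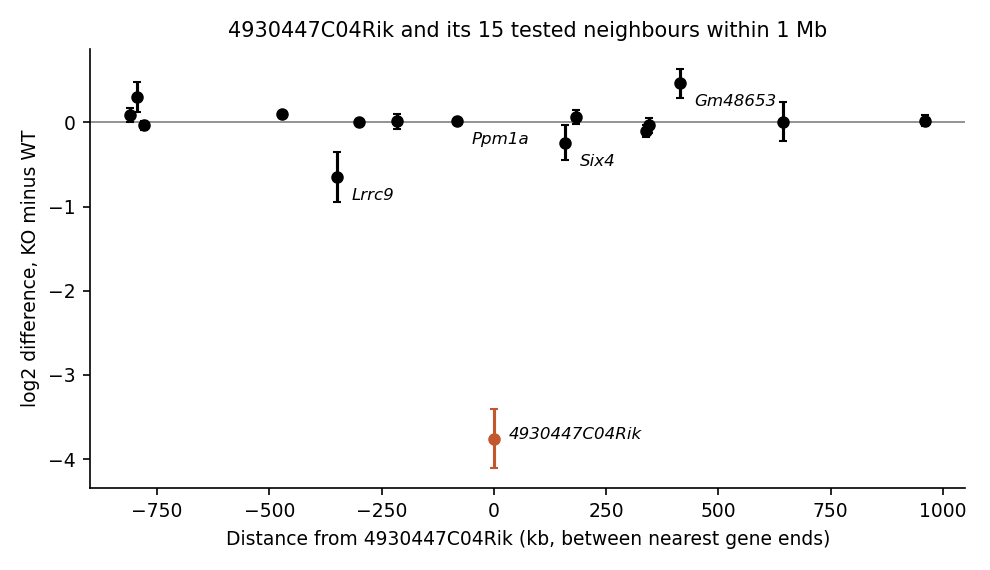
Log2 difference, KO minus WT, with its SE (y axis) for 4930447C04Rik (orange) and its 15 tested neighbours (black) against the distance in kb between the nearest gene ends (x axis). 4930447C04Rik sits at -3.76, and the neighbours lie between -0.65 for Lrrc9 and 0.46 for Gm48653, names added after their values were seen.

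The other 9 genes were low in this tissue. With 4930447C04Rik, 4 of the 10 reached a mean of 10 normalised counts and were tested, 5 had reads under that limit and Sycp1 had none. Of the 3 others tested, 0 passed the threshold by limma (0.9% of all genes did) or by edgeR (0.829%), and 1, Stag3, by DESeq2 (3.38%). Its unadjusted limma p was also the only one of the 3 under 0.05, against 13.5% of all genes. Summed over the 9 genes, normalised counts were 156 ± 24.1 (SD, n = 6; range 124 to 190) in the WT group and 165 ± 15.8 (SD, n = 6; range 147 to 192) in the KO group, so the ranges overlapped.

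Syce2, whose product joins with that of Tex12 in the central element, had 57.3 to 81.1 normalised counts (median 72.4) in WT mice and 56.7 to 73.3 (median 67.5) in KO mice. The ranges overlapped almost fully, with WT 493 lowest among WT and KO 484 lowest among KO mice. The log2 difference was -0.06 ± 0.11 (SE, adjusted p = 0.846), with a 95% interval from -0.29 to 0.17, or 0.82- to 1.13-fold.

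Syce1, another central element gene, had 1.71 to 12.9 normalised counts in WT and 1.09 to 6.07 in KO mice, from 35 and 18 reads in all. The means were 5.62 ± 4.07 (SD, n = 6) for WT and 3.12 ± 1.89 (SD, n = 6) for KO mice, and the groups overlapped (two-sided exact permutation test, p = 0.199). Without WT 523, the mouse with 12.9, the KO mean minus the WT mean went from -2.50 to -1.04. Syce3 had 1 read in WT 522, 1 read in KO 488 and 0 in the other 10 mice, and Tex12 had 1 read in WT 523 alone. At 3 reads a library, the limit that a count of 0 allows, neither gene could be compared between genotypes at this depth. Sycp1, which encodes the transverse filament, had 0 reads in all 12 libraries.

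The lateral element genes Sycp2 and Sycp3 encode partner proteins along the chromosome axis. Sycp2 had 21.2 to 38.6 normalised counts (median 27.5) in WT mice and 20.2 to 36.6 (median 23.9) in KO mice. WT mice were spread, with WT 490, WT 522 and WT 547 at 32.6 or more and the others at 22.3 or less, and among KO mice KO 488 was alone above 25.7. The log2 difference was -0.19 ± 0.20 (SE, adjusted p = 0.735), with a 95% interval of 0.65- to 1.19-fold. Sycp3 had 1.06 to 12.1 in WT and 1.03 to 12.2 in KO mice, on 50 and 33 reads in all, and the groups overlapped (two-sided exact permutation test, p = 0.331). Without KO 488, the mouse with 12.2, the KO mean minus the WT mean went from -2.52 to -3.89.

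Sycp3 reads carry a further limit. Exons of Chpt1, a phospholipid synthesis gene on the opposite strand, overlap 52.2% of the exon bases of Sycp3. Counting either strand, 38.4% of the 75-base stretches of Sycp3 also occur in transcripts of other genes. Stretches within the overlap with Chpt1 count among these, so the figures are not independent. Such shared stretches made up 1.84% for 4930447C04Rik, 2.62% for Sycp1 and 0% for the remaining 7 genes. Sycp3 counts are therefore uncertain where the others are mainly low.

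Stag3 and Smc1b encode meiotic cohesin subunits, and neither passed its main test. Stag3, whose product is the meiosis-specific STAG subunit of cohesin, had 31.0 normalised counts in WT 490, 38.2 in WT 493, 42.0 in WT 522, 45.3 in WT 523, 52.4 in WT 547 and 36.7 in the remaining female WT mouse. In KO mice it had 48.4 in KO 482, 57.8 in KO 484, 70.8 in KO 488, 65.0 in KO 530, 53.4 in KO 553 and 64.0 in KO 564. All 6 KO mice were above the WT mean of 40.9 ± 7.43 (SD, n = 6), and the groups overlapped only through KO 482 and WT 547. The KO mean was 59.9 ± 8.25 (SD, n = 6), 146% of the WT mean.

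The log2 difference of Stag3 was 0.55 ± 0.14 (SE), with a 95% interval of 1.19- to 1.80-fold. Its adjusted p was 0.0917 by limma, 0.0855 by edgeR and 0.0304 by DESeq2, so the call depends on the tool. Without WT 490 and WT 493, the libraries with the most choroid plexus RNA, the log2 difference was 0.43 (limma, adjusted p = 0.342). WT 490 and WT 493 were among the 3 lowest for Stag3. Smc1b, the meiosis-specific SMC subunit, had 0.80 to 6.05 in WT and 2.18 to 12.1 in KO mice, on 16 and 27 reads, with means of 2.60 ± 2.22 and 4.90 ± 3.71 (SD, n = 6 each). The two-sided exact permutation test gave p = 0.225 for Smc1b, and without KO 553 the difference of the means went from 2.30 to 0.86. Among all splits of 6 against 6 mice this test can go down to 0.00216, and 5 genes were tested in this way. Of these, Syce3 and Tex12, with at most 1 read per mouse, could not come near that value.

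**Figure D3:**
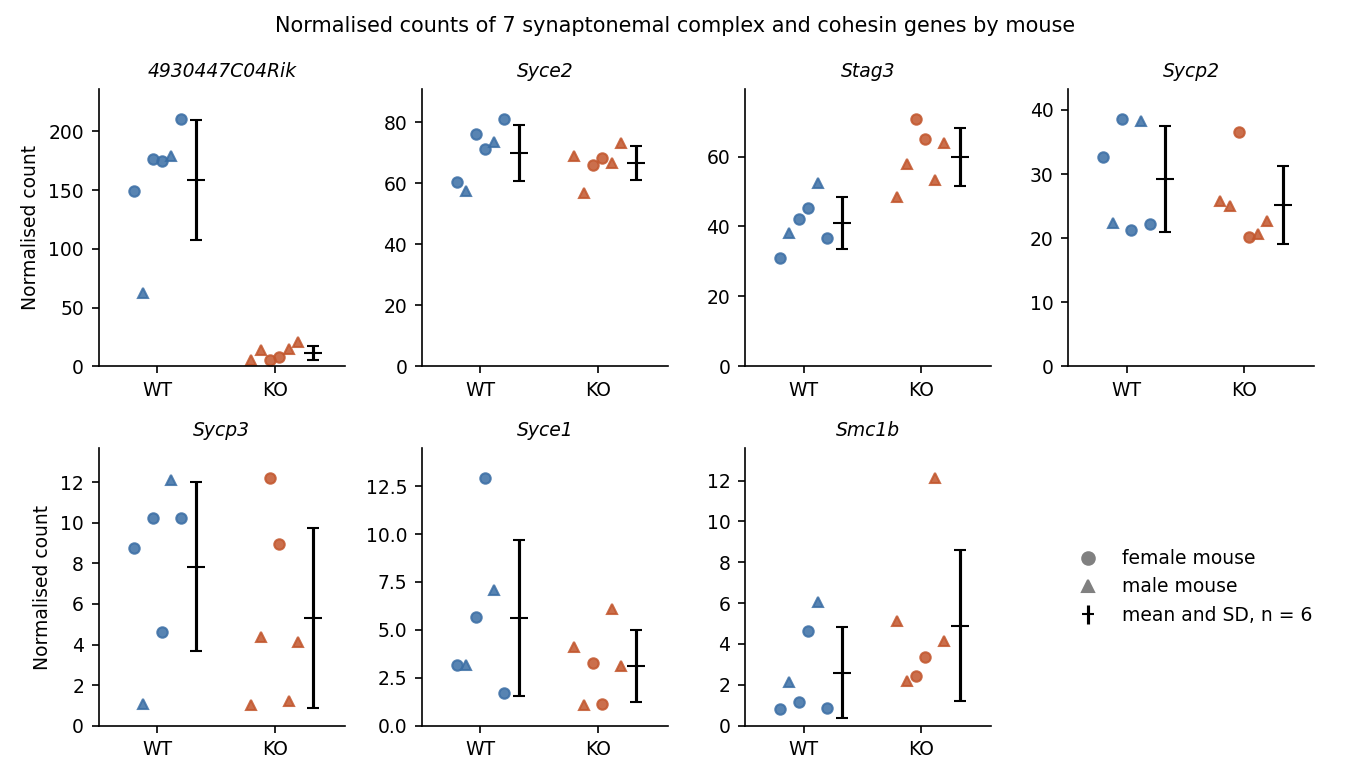
Normalised counts (y axis, one scale per gene, from 0) by genotype for the 7 genes with more than 1 read in a mouse. Each point is a mouse, circles are females, triangles are males, and the bar gives mean and SD (n = 6). Genotypes separate for 4930447C04Rik alone, which was chosen by its difference, and Stag3 overlaps between 48.4 and 52.4. Of all tested genes, 1.08% separate with KO mice lower and 0.423% with KO mice higher.

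Levels of different genes were compared only per kb of annotated exon. In WT mice Syce2 had the highest level of the 10 genes, 35.5 ± 4.69 normalised counts per kb (SD, n = 6), and 4930447C04Rik followed with 26.6 ± 8.53. Their ranges of 29.1 to 41.2 and 10.5 to 35.2 overlapped. Stag3 at 7.14 ± 1.30, Sycp3 at 6.20 ± 3.30, Sycp2 at 4.90 ± 1.39 and Syce1 at 3.85 ± 2.79 came next and overlapped with their neighbours in this order. Smc1b was at 0.64 ± 0.55, and Syce3, Tex12 and Sycp1 were at or near 0.

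In KO mice 4930447C04Rik was at 1.90 ± 1.02 normalised counts per kb, with a range of 0.86 to 3.45 that overlapped those of Sycp3, Sycp2, Syce1 and Smc1b. Stag3 at 10.5 ± 1.44 then stood second after Syce2 at 33.9 ± 2.80. Somatic cohesin genes gave the scale of the same complex outside meiosis. Rad21, the kleisin subunit, was at 623 ± 25.4 normalised counts per kb in WT mice, Smc1a, the somatic counterpart of Smc1b, at 376 ± 17.8 and Stag2, a somatic counterpart of Stag3, at 180 ± 10.3.

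**Figure D4:**
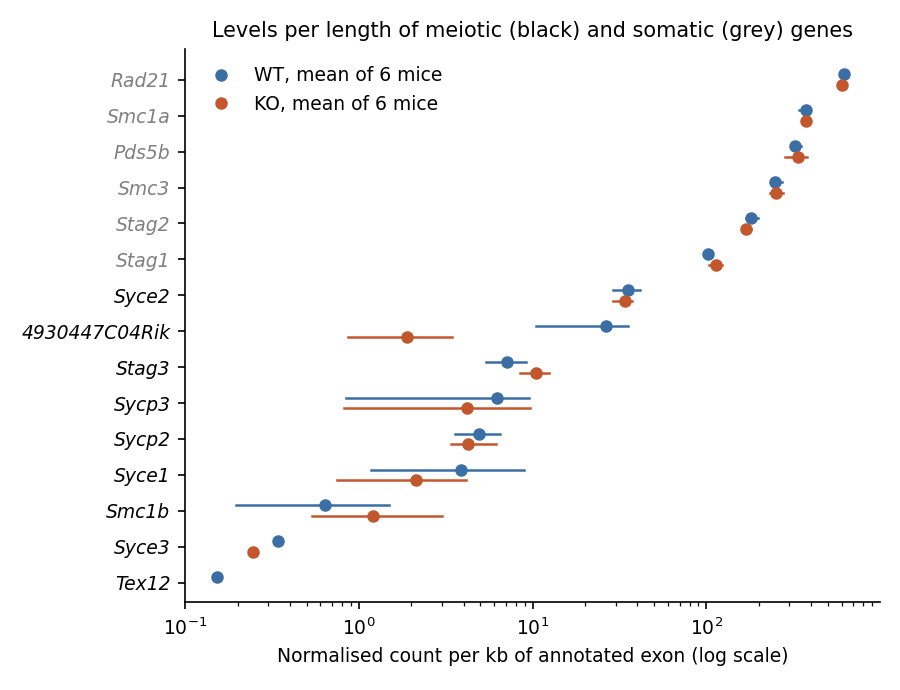
Normalised count per kb of annotated exon (x axis, log scale) of the genes with reads (black) and 6 somatic cohesin genes (grey). Points are means of 6 mice, WT in blue and KO in orange, and lines run from the lowest to the highest mouse where none is at 0. 4930447C04Rik drops from 26.6 to 1.90, while the means of the 6 somatic genes drawn lie above 100. Somatic cohesin genes not drawn had WT means from 0.47 for Esco2 to 260.5 for Mau2, names added after their values were seen.

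The somatic cohesin list held 15 genes, of which 12 were tested and 0 passed the threshold by limma (0.9% of all genes), edgeR (0.829%) or DESeq2 (3.38%), with 1 at an unadjusted limma p under 0.05 (13.5% of all genes). Its log2 differences ran from -0.08 to 0.14 with a median of 0.00, and the median over all tested genes was 0.00. Pds5b, a cohesin regulator and the gene with the highest mean of the list, had a log2 difference of 0.05 ± 0.06 (SE, adjusted p = 0.747), and Rad21 had -0.05 ± 0.04 (SE, adjusted p = 0.606).

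A wider set of 52 meiotic genes was examined beside 4930447C04Rik. Of these genes 27 were tested, 19 had reads under the limit and 6 had no read. By limma, edgeR and DESeq2 0 of the 27 passed the threshold, where 0.9%, 0.829% and 3.38% of all genes did. DESeq2 gave no adjusted p for some of the 27, among them Sgo2a and Tdrd1 (described below), and so could not call these. At an unadjusted limma p under 0.05 there were 6 of the 27, with 3 higher and 3 lower in KO mice, against 13.5% of all genes. The log2 differences ran from -0.93 to 0.29 with a median of 0.02.

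Of 6 further cohesin and axis genes 2 were tested. Rec8, the meiotic kleisin, had a log2 difference of -0.12 ± 0.14 (SE, adjusted p = 0.743), and Sgo2a, a protector of centromeric cohesin, of 0.02 ± 0.19 (SE, adjusted p = 0.981). Of 29 recombination genes 15 were tested. Mlh3, a crossover gene and the one with the highest mean of this list, had a log2 difference of 0.12 ± 0.04 (SE, adjusted p = 0.181). Of 7 genes that attach telomeres to the nuclear envelope 5 were tested, and Sun1 had 0.13 ± 0.05 (SE, adjusted p = 0.269) and Sun2 0.05 ± 0.06 (SE, adjusted p = 0.739).

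Of 10 genes of germ cells and meiotic entry 5 were tested, and 4 of the 5 log2 differences were negative, with a median of -0.35. The 3 lower values with an unadjusted p under 0.05 in the wider set were all in this list, against 13.5% of all genes in either direction. Besides Dazl these were Tdrd1, a piRNA pathway gene, at -0.93 ± 0.40 (SE, adjusted p = 0.314), and Ddx4, a germ cell RNA helicase gene, at -0.27 ± 0.12 (SE, adjusted p = 0.352), named after their values were seen. Dazl, which encodes a germ cell RNA-binding protein, had 81.1 to 113.6 normalised counts in WT and 64.0 to 84.0 in KO mice. The ranges of Dazl overlapped, and its log2 difference was -0.35 ± 0.11 (SE, adjusted p = 0.171). Ythdc2, an RNA helicase gene of meiotic entry, had 0.05 ± 0.05 (SE, adjusted p = 0.743). Summed over 6 germ cell markers, counts were 166 to 231 in WT and 138 to 183 in KO mice. Most of this sum came from Dazl, with means of 95.9 in WT and 75.1 in KO mice, and Ddx4, with 87.8 and 71.9. It therefore largely repeats these genes, since Mael, Sohlh1 and Sohlh2 had means of at most 2.05 in either genotype. In each genotype 1 of the 6 markers had no read. It was Sohlh2 in WT mice, with 1 read in KO mice, and Mael in KO mice, with 13 reads in WT mice. These 13 reads were uneven, with normalised counts of Mael from 0 to 6.47 and a median of 0.40, so some WT mice had none either.

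PRC1.6 is a repressor complex that keeps germ cell genes silent in somatic cells through E-box and E2F elements. All 13 of its listed genes were tested and 0 passed the threshold by limma (0.9% of all genes), edgeR (0.829%) or DESeq2 (3.38%), with 2 at an unadjusted limma p under 0.05 (13.5% of all genes). Mga, the subunit that binds E-boxes with its partner Max, had a log2 difference of 0.02 ± 0.04 (SE, adjusted p = 0.856), and Hdac2, a histone deacetylase subunit, of 0.03 ± 0.04 (SE, adjusted p = 0.839). The median over the 13 genes was 0.04.

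The X-linked Xlr genes are sequence relatives of Sycp3. This list was drawn from a family that the study itself named from these samples, so its direction is not independent evidence. Of 10 genes 6 were tested, and limma called 3 higher, against 0.159% of all genes. edgeR called 3 and DESeq2 4, where 0.829% and 3.38% of all genes were called. In all, 5 of the 6 log2 differences were positive, each with an unadjusted limma p under 0.05, against 13.5% of all genes. Xlr4a had 2.44 ± 0.57 (SE, limma, adjusted p = 0.0687) and Xlr4b 2.17 ± 0.50 (SE, adjusted p = 0.0664), both named after their values were seen. DESeq2 gave no adjusted p for Xlr4a. Xlr3b had 20.2 to 103 normalised counts in WT and 119 to 228 in KO mice, a log2 difference of 1.74 ± 0.34 (SE, adjusted p = 0.0283). Xlr3a had 2.11 ± 0.42 (SE, adjusted p = 0.0303) and Xlr3c 1.52 ± 0.33 (SE, adjusted p = 0.0486). Their copies are nearly identical, so reads may be split among them, and with sex as a covariate the adjusted p was 0.0646, 0.0596 and 0.0985 for Xlr3b, Xlr3a and Xlr3c, at log2 differences of 1.75, 2.18 and 1.55. Without WT 490 it was 0.0801, 0.0883 and 0.108 in the same order, and leaving out WT 523, KO 484, KO 553 or KO 564 also ended all 3 calls. With any 1 mouse left out, the log2 differences ran from 1.499 to 1.958, from 1.81 to 2.32 and from 1.31 to 1.67 in that order. Sycp3 itself, at 7.83 ± 4.17 in WT and 5.32 ± 4.43 in KO mice (SD, n = 6 each), was not measured higher.

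**Figure D5:**
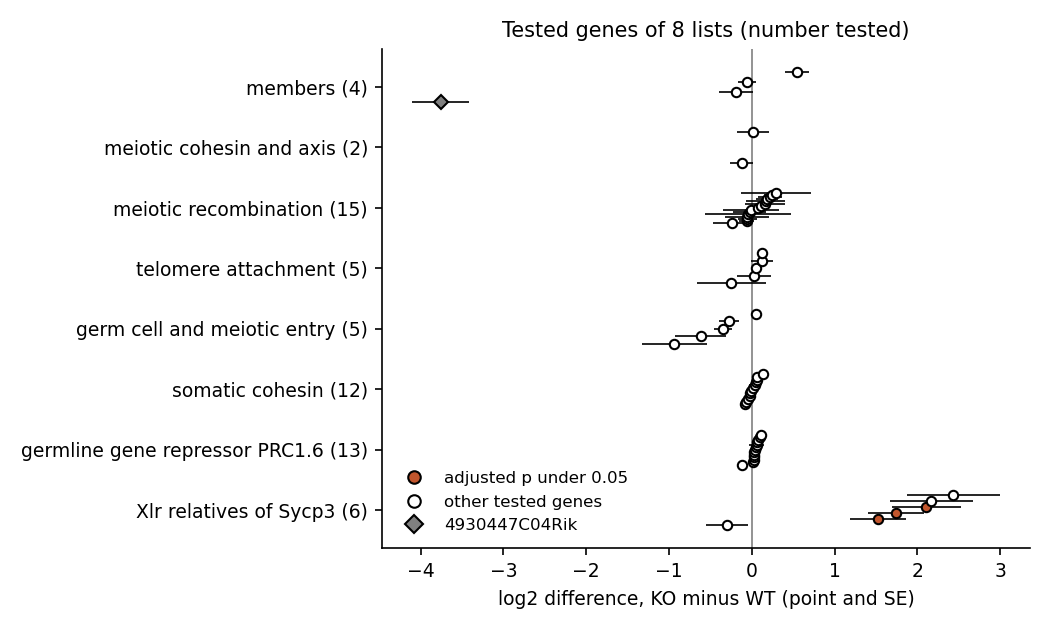
Log2 difference, KO minus WT, with its SE (x axis) for the tested genes of 8 lists (y axis, number of tested genes in brackets; "members" are the 4 tested genes of the 10). Orange points had an adjusted p under 0.05 by limma, namely 3 Xlr genes from 1.52 to 2.11, and the grey diamond at -3.76 is 4930447C04Rik, which was chosen by this difference.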

How the data were processed

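RNA from the hippocampus of 12 mice was sequenced, with 6 libraries per genotype, and group and sex were read from the labels. The deposited signal is, per gene, a read count that the authors normalised with DESeq2. The submitters' processing notes name STAR 2.5.0a, edgeR 3.22.2 and mm10. The counter, annotation and strand setting are not given in the sources used here. Every deposited value (100%) was a whole multiple of a step particular to its library (tolerance 0.01 reads), so whole reads were recovered. Counts of any 2 libraries differed beyond sampling noise, with a chi-square of at least 4.25 per degree of freedom. The coordinates of 54821 genes equalled those of GENCODE M21, which gave exons and transcripts. Sequences came from RefSeq windows of GRCm38.p6, which held all 10 genes.

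Genotypes were compared with limma 3.58.1 (R 4.3.3) with trend, on log2 of the normalised count plus a pseudocount of 1, over all 12 mice, and genotype was the single term of the fit. Genes with a mean of at least 10 entered, and p-values were adjusted by Benjamini-Hochberg over all 18221 of them, with a threshold of 0.05. The 5 of the 10 genes with reads under that mean had a two-sided exact permutation test (scipy 1.17.1). Sex was tested with genotype in the fit. The analysis was repeated with another pseudocount (0.5, 5), with no limit or a limit of 50 on the mean, with equal library totals, with sex as a covariate, without trend, with edgeR 4.0.16 and DESeq2 1.42.0 applied to recovered reads, with 0.1 as threshold, and with each mouse left out. Intervals cover 95%.

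On simulated counts with 200 genes changed 2-fold between the genotypes, limma recovered 192 (96%) and called 9 others of 18129 genes. For sex it recovered 180 (90%) and called 6 others of 18151. The changed genes were drawn only from genes with means clearly above the limit of 10 used for testing. Recovery of genes near that limit, or of differences under 2-fold, was therefore not simulated.

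The genes described, the lists and the naming rule were chosen with earlier results of these data known. Named were the 10 genes, Usf1, Six6, the 5 tested genes nearest to 4930447C04Rik in KO mean as a percentage of WT without overlap, the genes of each meiotic, cohesin, repressor and Xlr list past the threshold and its 2 with the highest mean, and the nearest tested neighbours. For 1 gene that this rule names, the values are not reported here. Smc1a and Stag2 were named later as counterparts of meiotic genes. Which mice shared a litter is not given in the sources used here, and p-values set a difference against the spread between these mice.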

Additional observations from a re-analysis of the deposited data

Results flagged for a closer look

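Over 15 genes, the 10 described here with Usf1 and the 4 other genes nearest to 4930447C04Rik, 30 groups of 6 mice were screened for a mouse set apart by Dixon's criterion, and 7 values were set apart. The criterion flags about 1 in 20 groups by chance, but always flags a single read among zeros, which 3 of the 7 were. WT 493 was apart in 2 of them, with a Usf1 count of 841.8, where the rest of the WT group had 1425 to 1583, and a Cfap47 count of 66.9, where the rest had 31.3 to 39.0. The Sycp2 count of 36.6 in KO 488, on 45 reads, stood above the 20.2 to 25.7 of the remaining KO mice. The Smc1b count of 12.1 in KO 553, on 10 reads, stood above 2.18 to 5.15. The remaining values were single reads, namely Syce3 at 1.14 in WT 522 and 0.814 in KO 488 and Tex12 at 0.923 in WT 523, each against 0 in the other mice of the group. 4930447C04Rik in WT 493 did not meet the criterion.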

How the results depend on the processing

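The log2 difference of 4930447C04Rik stayed between -4.07 and -3.32 over 22 alternatives. Those of the other tested genes of the set kept their direction in every alternative run, from -0.18 to -0.02 for Syce2, from -0.30 to -0.10 for Sycp2 and from 0.43 to 0.62 for Stag3. The number of the 3 other tested genes past the threshold was 0, and 1 with DESeq2 or a threshold of 0.1, both for Stag3, whose adjusted p ranged from 0.0304 to 0.342. The other meiotic, somatic cohesin, PRC1.6 and neighbouring genes gave 0 calls in all 23 alternatives. The count over all genes moved from 164 to 98 with sex as a covariate, 109 without trend, 616 with DESeq2, 343 at a threshold of 0.1 and 59 without WT 490 and WT 493, an alternative chosen after seeing the data. With each mouse left out it ranged from 64 without WT 490 to 515 without WT 522, and the cause was not tested. The 10 sex differences became 17 without KO 488. Of 654 values of single genes under alternatives, 589 stayed on their side of the threshold or, for 4930447C04Rik, within the spread between mice, 63 lost their call and 2 gained one. Zfp459 lost it in 6, Slc45a3 in 9, Cfap47 in 16, Xlr3a in 10, Xlr3b in 7 and Xlr3c in 15. Depth limits Sycp1, Syce3 and Tex12, with at most 1 read per library. No paired analysis was possible because the labels number each mouse once, with no number shared between the genotypes.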
